A study of Mus musculus with 16 samples.

Results

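Formins are proteins that start new unbranched actin filaments and stay on the growing end while subunits are added. The 10 formin genes described here were taken by symbol, namely Fhod1, Fhod3, Daam1, Daam2, Diaph1, Diaph2, Diaph3, Inf2, Fmnl2 and Fmnl3. All 10 were found by Ensembl identifier among the 38087 gene rows of experiment A and the 54232 rows of experiment B; experiment A lists the Diaph genes as Diap1, Diap2 and Diap3. RNA was measured in whole mouse hearts of the C57BL/6 strain. Experiment A compared libraries from 86-week-old females, 3 wild-type (WT) and 3 CAP2 -/-, in which the knockout is not limited to heart muscle. Experiment B compared libraries from 13-week-old mice that all carried the Loxp/Loxp Cap2 allele, 5 without Cre (Cre-, 3 females and 2 males, here called the controls) and 4 with a Cre transgene under the cardiomyocyte promoter Myh6 (Cre+, 3 females and 1 male). The transgene and the loss of Cap2 came together in experiment B and cannot be told apart, and cells other than cardiomyocytes keep Cap2 by this design. A further labelled Cre+ sample was not analysed here.

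CAP2, of the cyclase-associated proteins, holds actin monomers and helps to take filaments apart, so it works on the same pool of actin that formins draw on. Most formins are held shut by contact between their ends until a signal opens them. In heart muscle FHOD3 sits in the sarcomere, the contractile unit, and is needed to build and keep its thin filaments. DAAM1 is also known from sarcomere assembly, whereas the Diaphanous formins, INF2 and the FMNL formins are known mainly from stress fibres, cell division, organelle dynamics and cell protrusions in many cell types.

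Cap2 itself followed the labels. It stood at 200 to 234 CPM (estimated counts scaled to 1000000 per library) in WT and 8.04 to 16.1 CPM in CAP2 -/- libraries, a log2 fold change of -4.13 with an edgeR adjusted p of 1.00e-07. In experiment B the median of its deposited normalized count was 342 in the controls and 70 in Cre+ and no Cre+ library reached a control, a log2 fold change of -2.22 with a limma adjusted p of 0.0161, which rose to 0.0922 without Cre+ 4, 0.0687 without control 1 and 0.192 with the atrial markers as a covariate. Library totals in experiment A ran from 10750175 to 27440478 estimated counts. The depth of experiment B is unknown, and its mitochondrially encoded share was 30.4% to 69.5% in the controls and 23.0% to 52.7% in Cre+. All 6 cardiomyocyte markers were detected in both experiments, with summed levels of 62860 to 71523 CPM in WT and 57630 to 64512 in CAP2 -/-, and of 137177 to 235060 in the controls and 150595 to 192594 in Cre+. Atrial markers were higher in most Cre+ libraries, and fast skeletal muscle markers in all of them. Which cells these transcripts came from was not tested. The summed normalized count of 5 atrial markers was 59 to 6736 in the controls and 425 to 42003 in Cre+. The groups overlapped, as Cre+ 1 at 425 lay below control 2 (844) and control 3 (6736). That of 6 fast skeletal muscle markers was 39 to 109 in the controls and 1098 to 3258 in Cre+, with no overlap. In experiment A the summed atrial markers were 15.7 to 18.9 CPM in WT and 19.3 to 25.3 in CAP2 -/-, the skeletal muscle markers 13.8 to 24.2 and 41.2 to 51.8, and the fibroblast markers 620 to 734 and 812 to 948, and none of these ranges overlapped. The fibroblast markers did not move together. Of the 6, 4 had a positive log2 fold change, the median was 0.09, and 1 had an edgeR adjusted p under 0.05. How often such sums do not overlap is not given. The part of all these markers in the results below was not tested, beyond a fit of experiment B that holds the atrial markers as a covariate.

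No formin passed the main test in either experiment. In experiment A, 9 of the 10 were tested (Diaph3 was under the minimum), 0 had an adjusted p under 0.05 in edgeR's quasi-likelihood test, and 1.35% of the 16297 genes tested did. In DESeq2, 1 member passed, Fhod3, against 2.47% of all genes. At an unadjusted p under 0.05 in edgeR there were 2 members, Fhod3 and Daam1, against 10.4% of all genes. The median log2 fold change of the 9 was -0.07, beside 0.0057 over all genes tested; 7 of the 9 were negative. In experiment B, again 9 were tested, 0 were called by limma with Benjamini-Hochberg adjustment, and 1.88% of 12141 genes were. The groups did not overlap for 0 of the 9, against 8.66% of all genes. The same pair, Fhod3 and Daam1, had an unadjusted p under 0.05, a rule that 22.1% of all genes met. The median of the 9 was -0.13, beside -0.12 over all genes, and 6 of the 9 were negative. The number of genes called in experiment B moved by over 1.5 times when any of its 9 libraries was left out, between 39 and 695.

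**Figure D1:**
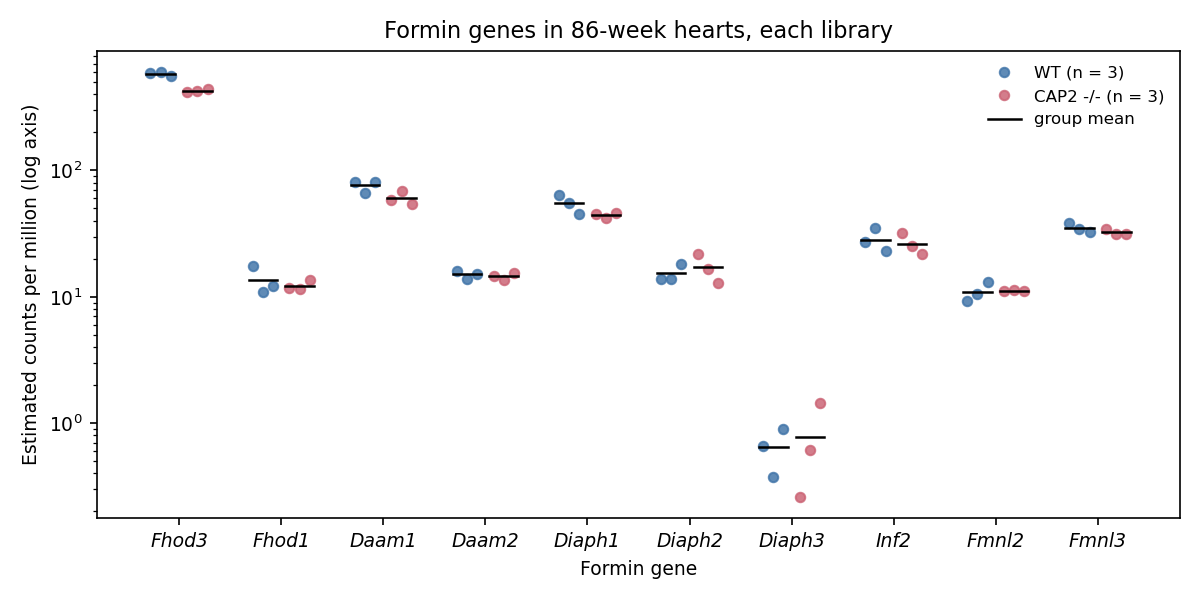
Level of each formin gene in each library of experiment A, in CPM on a log axis, with points for the 3 WT and 3 CAP2 -/- libraries and a line at each group mean. Fhod3 lay at 557 to 603 in WT and 417 to 441 in CAP2 -/-, the single tested formin whose groups did not overlap, and Diaph3 lay at 0.261 to 1.45.

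Fhod3, the sarcomeric formin, stood apart from the rest of the family in level in experiment A. Its gene spans chromosome 18 from 24708623 to 25133501 on the plus strand (mm10). In experiment A it stood at 591, 603 and 557 CPM in WT libraries 1 to 3 and at 417, 427 and 441 CPM in CAP2 -/- libraries 1 to 3. Every CAP2 -/- library was below every WT library, a lack of overlap shown by 1 of the 9 formins tested and by 15.6% of all genes. The mean was 584 ± 23.6 CPM (SD, n = 3) in WT and 428 ± 11.8 CPM (SD, n = 3) in CAP2 -/-. The log2 fold change was -0.40 (SE 0.105), with an unadjusted p of 0.00153 and an edgeR adjusted p of 0.0772. Whether this passed 0.05 depended on the tool and the genes tested: DESeq2 gave an adjusted p of 0.0129, the authors' deposited table gave a log2 fold change of -0.41 with an adjusted p of 0.0129, and edgeR with no filter on low counts gave 0.0401. Leaving out any 1 library kept the log2 fold change between -0.44 and -0.37 and gave edgeR adjusted p-values of 0.113 to 0.278.

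All 27 exon rows of its 1 transcript model in experiment A had enough reads to be described, with up to 7452 reads each over the 6 libraries. The mean CPM was lower in CAP2 -/- for 26 of the 27, at 0.521 times WT in exon 2 and 1.02 times in exon 23 at the extremes. The groups did not overlap for 12 of the 27, all lower in CAP2 -/-, against 14.2% of all exon rows in either direction, and in the others they overlapped. These exons share the reads of 1 gene and are not replicates. The exons' shares of the gene's reads were 0.702 to 1.38 times WT in CAP2 -/-. Shares did not overlap for 2 of the 27, exons 1 and 16, at 0.807 and 0.804 times WT, against 10.2% of all exon rows. Fhod3 set against the summed cardiomyocyte markers was 8.27 to 9.59 per 1000 in WT and 6.64 to 7.41 in CAP2 -/-, so these groups did not overlap either. That sum follows its most abundant genes. Singly, 2 of the 6 markers had a positive log2 fold change in experiment A, and the median of the 6 was -0.15. In edgeR 2 had an unadjusted p under 0.05, both lower in CAP2 -/-, and 0 an adjusted p under 0.05. The share of all genes without overlap in such a ratio is not given. In experiment B the ratio was 1.79 to 12.6 in the controls and 1.14 to 2.52 in Cre+, and the groups overlapped. There 1 of the 6 markers had a limma adjusted p under 0.05, lower in Cre+. In whole hearts, fewer cells of a type and less RNA per cell cannot be told apart. A gene on the opposite strand, Gm9955, overlaps Fhod3 exons with 101 reads over the 6 libraries, and whether reads were counted by strand is not given in the sources used here.

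In experiment B, Fhod3 was spread widely among the controls. Its normalized count was 670, 384, 525, 2206 and 710 in controls 1 to 5 and 287, 486, 321 and 199 in Cre+ 1 to 4. The highest Cre+ library, Cre+ 2, exceeded control 2, so the groups overlapped, and control 4 was far above every other library. The log2 fold change was -1.18 (SE 0.442) with a limma adjusted p of 0.160, and over 21 alternatives it ran from -1.64 (with the mitochondrial share as a covariate) to -0.53, with adjusted p-values of 0.114 to 0.834. Without control 4 it was -0.85 (limma adjusted p 0.114), without Cre+ 4, the only Cre+ male, -0.53 (0.622), and with the atrial markers as a covariate -0.62 (0.834). Within the females alone it was -0.53 with a limma adjusted p of 0.351. The fit without Cre+ 4 gives the same log2 fold change by design. Its males are all controls, and with a sex term they add nothing to the group difference. The males were control 4, control 5 and Cre+ 4, too few for a test of their own.

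Fhod1, the other FHOD formin and known from stress fibres, was low in experiment A. It spans chromosome 8 from 105329163 to 105347953 on the minus strand. Its CPM was 17.5, 10.9 and 12.2 in WT and 11.8, 11.4 and 13.6 in CAP2 -/-. These overlap (log2 fold change -0.11, SE 0.202, edgeR adjusted p 0.905). In experiment B it ran from 49 (control 4) to 191 (control 1) with a median of 109 in the controls, and stood at 194, 96, 99 and 63 in Cre+ 1 to 4. The difference was small beside its error (log2 fold change -0.23, SE 0.331, limma adjusted p 0.701). Fhod1 exons overlap those of Tmem208 on the other strand. In experiment A the gene row of Tmem208 has 1958 reads, and the exon rows of Fhod1 sum to 1320. Without strand the level of Fhod1 is uncertain. Per kilobase of exon, Fhod3 exceeded Fhod1 by 28.0 to 47.8 times in the libraries of experiment A. In experiment B that ratio was 1.47 to 4.19 in 4 controls, 29.0 in control 4, and 0.952 to 3.26 in Cre+. The kits and the normalization differ between the experiments, so the levels cannot be set against each other.

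**Figure D2:**
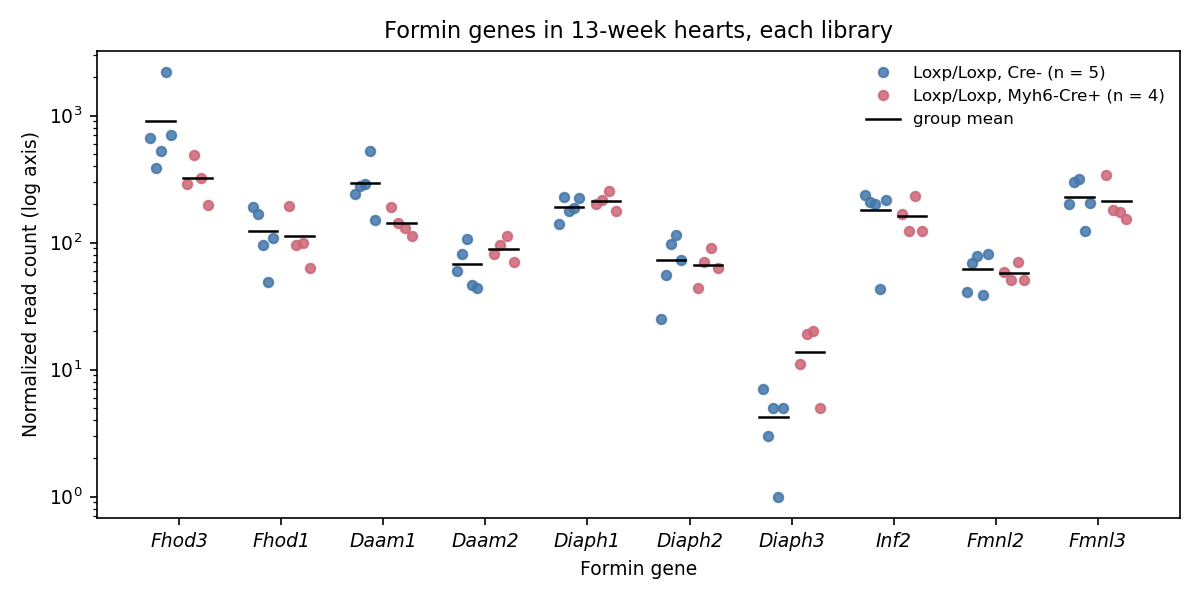
Level of each formin gene in each library of experiment B, as the authors' normalized read count on a log axis, with points for the 5 control and 4 Cre+ libraries and a line at each group mean. One control reached 2206 for Fhod3 and was the lowest control for Inf2 at 43, and Diaph3 lay at 1 to 20.

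The DAAM formins carry a Dishevelled-binding role in planar polarity signalling, and Daam1 was the second most abundant formin per kilobase in experiment A. Daam1 spans chromosome 12 from 71831078 to 71992333 on the plus strand, and Daam2 chromosome 17 from 49456022 to 49564343 on the minus strand. Both have 26 exons in their 1 transcript model of the experiment A table. In each of them exon 16 had 0 reads in all 6 libraries, while exons 15 and 17 beside it had reads. The annotated sequences (GENCODE M21, mm10, 5′ to 3′ along the gene) are shown because this exon is the one place where the 2 paralogs share a gap in coverage. Capitals mark exon 16, and the lower-case letters are the last 24 bases of exon 15 and the first 24 of exon 17.
Daam1 exon 16, chr12:71958747-71958773, plus strand: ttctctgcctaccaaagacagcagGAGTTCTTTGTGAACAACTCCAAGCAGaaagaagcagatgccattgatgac
Daam2 exon 16, chr17:49474109-49474252, minus strand: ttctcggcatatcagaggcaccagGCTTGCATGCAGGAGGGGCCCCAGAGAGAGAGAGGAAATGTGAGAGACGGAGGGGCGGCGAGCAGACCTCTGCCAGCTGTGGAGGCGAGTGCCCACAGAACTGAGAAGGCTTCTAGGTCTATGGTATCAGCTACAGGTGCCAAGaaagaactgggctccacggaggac

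The capitals run to 27 bases (9 codons) in Daam1 and 144 bases (48 codons) in Daam2, all within the annotated coding sequence. The neighbours match in size, 108 bases for exon 15 and 107 for exon 17 in either gene, and are identical at 67.6% and 66.4% of their bases when lined up base by base. Daam1 had 94.5 reads on exon 15 and 245 on exon 17 over the 6 libraries, or 0.875 and 2.29 per base. A count of 0 on exon 16 allows up to 3 reads, or 0.111 per base, for counting error only. Daam2 had 31.1 and 26.4 reads on the neighbours, 0.288 and 0.247 per base, against an upper limit of 0.0208 per base for its exon 16. Among internal exons of 20 to 35 bases in genes of 1 transcript model with a depth of 0.5 to 3 reads per base, 12 of 134 (8.96%) had 0 reads. Among internal exons of 100 to 200 bases in such genes at 0.15 to 0.4 reads per base, 38 of 3756 (1.012%) had 0. How well the authors' alignment finds so short an exon as that of Daam1 was not tested. A microexon of Daam1 that is used mainly in neurons is known, and whether it is the one printed was not tested.

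**Figure D3:**
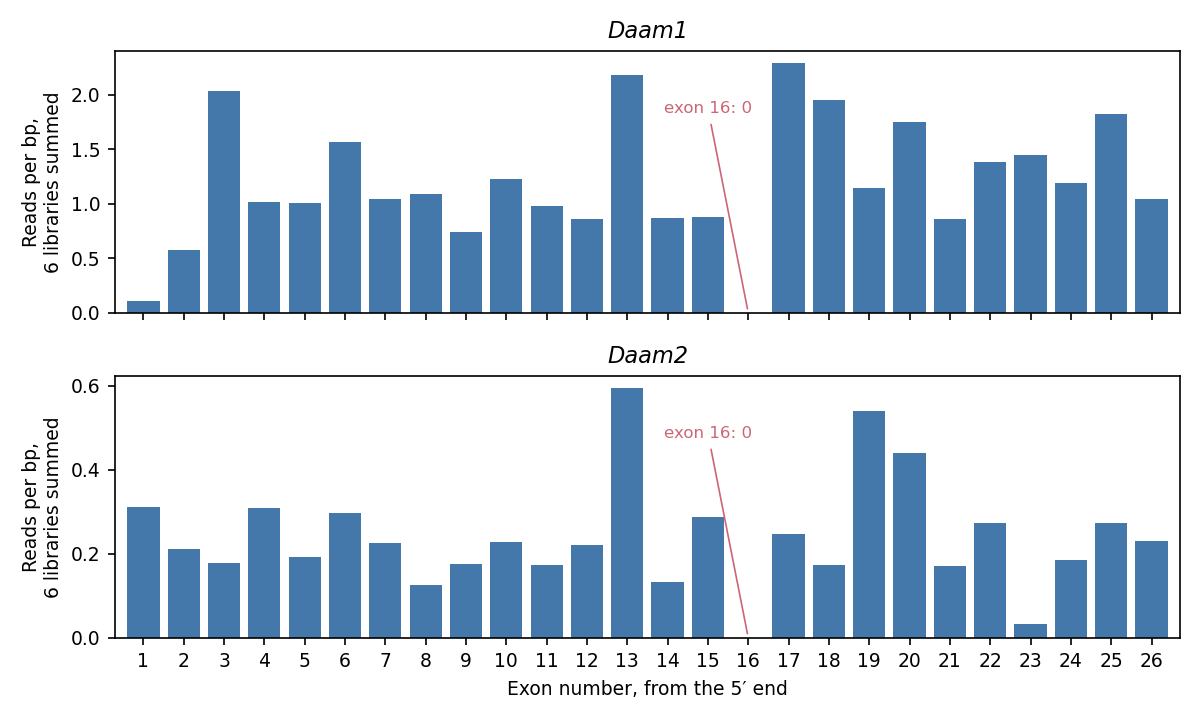
Reads per base pair summed over the 6 libraries of experiment A (vertical axis) for the 26 exons of Daam1 and Daam2, numbered from the 5′ end (horizontal axis). Exon 16 is at 0 in both genes, between exons 15 and 17 with 0.875 and 2.29 reads per base pair in Daam1 and 0.288 and 0.247 in Daam2.

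Daam1 had an unadjusted p under 0.05 in experiment A, as 10.4% of all genes did, and in experiment B, as 22.1% did. The share of all genes that met this in both is not given here, and Daam1 was called in neither. In experiment A it stood at 81.0, 66.6 and 81.0 CPM in WT and 58.7, 68.3 and 54.0 CPM in CAP2 -/-. CAP2 -/- 2 lay above WT 2, so the groups overlapped. The log2 fold change was -0.29 (SE 0.128) with an unadjusted p of 0.0363 and an edgeR adjusted p of 0.427. Of its 26 exon rows, 19 had enough reads, and the shares of 3 of these did not overlap, against 10.2% of all exon rows. They were exons 7, 13 and 17, each lower in CAP2 -/- at 0.553, 0.531 and 0.573 times WT. Exon 7 had enough reads in WT only, a mean of 29.3 beside 9.42 in CAP2 -/-. In experiment B, Daam1 stood at 243, 279, 290, 524 and 150 in the controls and at 190, 143, 130 and 112 in Cre+. Every Cre+ library but Cre+ 1 lay below every control, and control 4 was again the highest. The log2 fold change was -0.97 (SE 0.33) with a limma adjusted p of 0.134. It became a call without control 5 (log2 fold change -1.17, limma adjusted p 0.0443), and without control 4 and Cre+ 1 together (-0.81, 0.0305), a pair left out after seeing the data. Without control 4 alone it was -0.72 (limma adjusted p 0.0697). Within the females the log2 fold change was -0.82 (limma adjusted p 0.116), and with the atrial markers as a covariate -0.62 (0.818).

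Daam2 was lower than Daam1 in every library and showed no call. Its CPM was 15.9, 13.9 and 15.1 in WT and 14.7, 13.5 and 15.4 in CAP2 -/-. The groups overlapped (log2 fold change -0.00084, SE 0.164, edgeR adjusted p 0.999). At 13 weeks it stood at 60, 82, 107, 46 and 44 in the controls and 81, 95, 112 and 71 in Cre+. These overlap (log2 fold change 0.36, SE 0.246, limma adjusted p 0.402), opposite in sign to that of Daam1.

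The Diaphanous formins build straight filament bundles. Diaph1 spans chromosome 18 from 37843601 to 37935476, minus strand. In experiment A it stood at 64.2, 55.5 and 45.3 CPM in WT and 45.1, 42.1 and 46.1 CPM in CAP2 -/-. WT 1 was the highest and the groups overlapped through WT 3. Its log2 fold change was -0.27 (SE 0.14, edgeR adjusted p 0.551), and without WT 1 it was -0.13 (0.921). At 13 weeks Diaph1 was 139, 227, 178, 186 and 223 in the controls and 201, 215, 253 and 179 in Cre+ (log2 fold change 0.16, SE 0.222, limma adjusted p 0.690).

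Diaph1 held the formin exon shares that differed most in experiment A. Over all members, 94 of 320 exon rows had enough reads, and for 9 of them the shares of the gene's reads did not overlap between groups, against 10.2% of the 71431 exon rows of all genes. All 9 were lower in CAP2 -/-, and the 3 that differed at least 2-fold were rows 37, 38 and 39 of Diaph1, near its 3′ end; 1.79% of all rows met that rule. Row 39 held 3.05%, 4.14% and 2.61% of the gene's exon reads in WT and at most 0.643% in CAP2 -/-. The table splits reads of a shared stretch over transcript models. With every row that overlaps row 39 summed, the same stretch held 29.6% to 34.6% in WT and 28.1% to 37.2% in CAP2 -/-, so the groups overlapped. Row 37 summed in the same way held 6.52%, 5.87% and 7.68% in WT and 2.88%, 4.01% and 6.28% in CAP2 -/-, again with an overlap. Row 38, which no other row overlaps, held 2.83%, 2.40% and 1.99% in WT and 1.05%, 1.4999% and 0.483% in CAP2 -/-. Rows 37, 38 and 39 had enough reads in WT only. Their mean reads were 25.9, 26.4 and 32.7 in WT and 1.90, 5.92 and 1.93 in CAP2 -/-. Rows let in by WT alone tend to be lower in CAP2 -/-, so their direction is no separate result. Exon shares were described without a test.

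Diaph2, on the X chromosome from 129749742 to 130465834, stood at 13.9, 13.7 and 18.3 CPM in WT and 21.7, 16.7 and 12.9 CPM in CAP2 -/-. The groups overlapped fully (log2 fold change 0.20, SE 0.203, edgeR adjusted p 0.809). In experiment B it was 25, 56, 97, 115 and 73 in the controls and 44, 71, 90 and 63 in Cre+ (log2 fold change 0.07, SE 0.402, limma adjusted p 0.929).

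Diaph3, a formin of dividing cells, was the lowest formin in every group. It spans chromosome 14 from 86655367 to 87141235, and had 3 to 23.1 reads per library in experiment A, 18, 4 and 14.9 in WT and 3, 8.48 and 23.1 in CAP2 -/-, too few for the main test. The 13-week values were 7, 3, 5, 1 and 5 in the controls and 11, 19, 20 and 5 in Cre+. All Cre+ libraries but Cre+ 4 lay above every control. Its mean was under the minimum of 10, so it was not in the main test, and without that minimum limma gave an adjusted p of 0.221. The 5 markers of cycling cells moved the same way, with a summed normalized count of 39 to 86 in the controls and 119, 407, 402 and 101 in Cre+ 1 to 4. Their part in the Diaph3 values was not tested.

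INF2 can both build and sever filaments and is known from the endoplasmic reticulum and mitochondrial division. Inf2 spans chromosome 12 from 112588784 to 112615557. Its CPM was 26.95, 34.8 and 23.2 in WT and 31.9, 25.3 and 21.7 in CAP2 -/- (log2 fold change -0.05, SE 0.182, edgeR adjusted p 0.955). Inf2 in experiment B was 238, 208, 203, 43 and 216 in the controls and ran from 123 to 234 in Cre+. Control 4 alone lay below every Cre+ library. The fitted log2 fold change was -0.13 (SE 0.409, limma adjusted p 0.869), and -0.46 (0.246) without control 4.

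The FMNL formins shape lamellipodia and filopodia, and Fmnl3 is also known from endothelial cells. Fmnl2 (chromosome 2, 52857860 to 53133804) stood at 9.23, 10.5 and 13.2 CPM in WT and 11.1, 11.2 and 11.1 CPM in CAP2 -/- (log2 fold change 0.08, SE 0.192, edgeR adjusted p 0.940). In experiment B it was 41, 69, 79, 39 and 82 in the controls and 59, 51, 71 and 51 in Cre+ (log2 fold change -0.06, SE 0.301, limma adjusted p 0.919). Fmnl3 (chromosome 15, 99317225 to 99370482) stood at 38.6, 34.2 and 32.7 CPM in WT and 34.5, 31.6 and 31.1 CPM in CAP2 -/-. Its log2 fold change was -0.07 (SE 0.133, edgeR adjusted p 0.903), and the groups overlapped. Fmnl3 in experiment B was 202, 302, 319, 124 and 205 in the controls and 341, 181, 175 and 154 in Cre+. Cre+ 1 was above every other library (log2 fold change -0.21, SE 0.276, limma adjusted p 0.679).

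**Figure D4:**
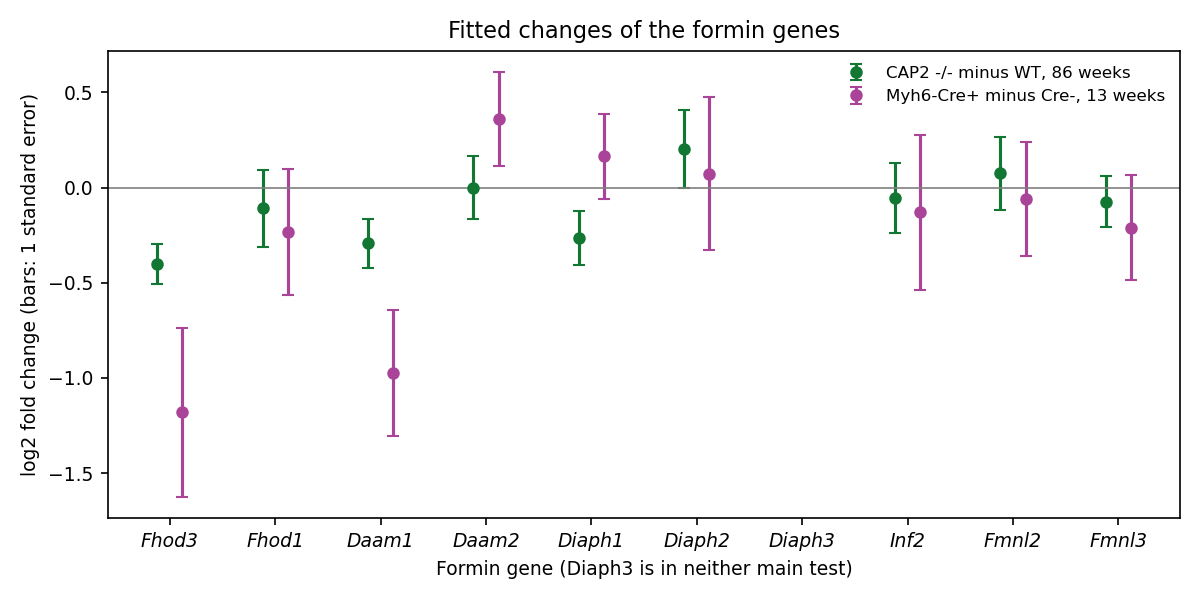
Fitted log2 fold change of each tested formin (vertical axis; bars are 1 standard error) for CAP2 -/- minus WT and for Cre+ minus controls. Fhod3 (-0.40 and -1.18) and Daam1 (-0.29 and -0.97) lie below 0 by more than 2 standard errors in both experiments, and no point passed an adjusted p of 0.05. The share of all genes that lie as far below 0 in both experiments is not given.

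Within the family, Fhod3 made up most of the signal per kilobase of exon in experiment A. The summed level of the 10 genes was 144 to 156 CPM per kilobase in WT and 117 CPM per kilobase in every CAP2 -/- library. Fhod3 supplied 70.2%, 72.7% and 71.4% of it in WT and 66.2%, 67.6% and 69.4% in CAP2 -/-. In WT the order per kilobase was Fhod3 at 108 ± 4.37 (SD, n = 3), Daam1 at 12.7 ± 1.38 and Diaph1 at 8.68 ± 1.496, then Fmnl3 at 6.50 to 7.69 and Inf2 at 5.04 to 7.57. Below these came Fhod1 at 2.90, Daam2 at 2.48, Fmnl2 at 1.82, Diaph2 at 1.33 and Diaph3 at 0.140. Of neighbours in this order, Diaph1 and Fmnl3, Fmnl3 and Inf2, Fhod1 and Daam2, and Fmnl2 and Diaph2 overlapped between libraries, and the others did not. The order of the means was the same in CAP2 -/-.

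In experiment B, Fhod3 supplied 31.7%, 18.4%, 24.4%, 65.6% and 34.2% of the summed level per kilobase in controls 1 to 5 and 15.02%, 29.3%, 18.5% and 16.96% in Cre+ 1 to 4. In the controls Fhod3 was first by its median of 92.4 normalized counts per kilobase, and its lowest value, 53.0, lay above the highest of Inf2 at 48.9 but below the highest of Fmnl3 (63.5) and Daam1 (64.7). Inf2, Fmnl3, Daam1, Diaph1 and Fhod1 then overlapped each with the next. In Cre+ the median of Fhod3 was 41.9 and overlapped that of Fmnl3 at 35.5. The median of Daam1 was 34.5 in the controls, above those of Diaph1 and Fhod1, and 16.9 in Cre+, below both.

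**Figure D5:**
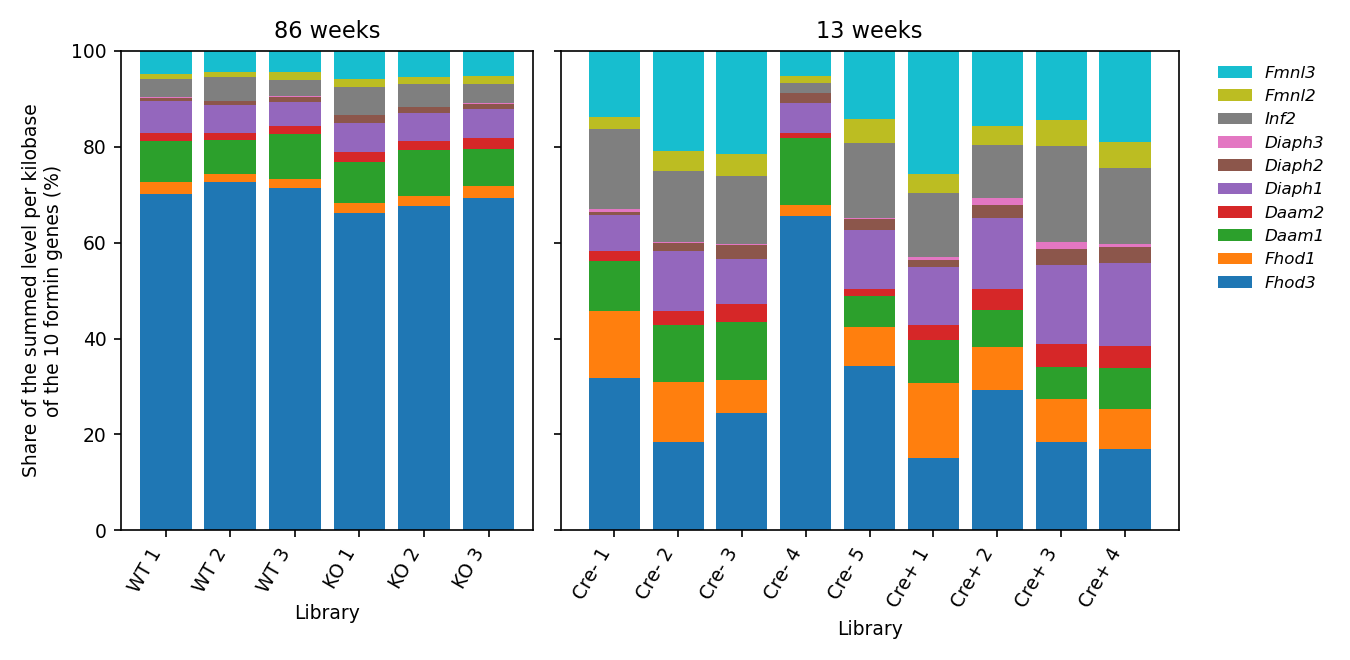
Share of each formin in the summed level per kilobase of the 10 genes (vertical axis, percent) in each of the 15 libraries, 86 weeks on the left (KO is CAP2 -/-) and 13 weeks on the right. Fhod3 fills 66.2% to 72.7% of the bars at 86 weeks, and at 13 weeks 15.02% to 34.2% except 65.6% in control 4.

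Control 4 of experiment B stood apart for several formins. Against the mean of the other controls its log2 level was 1.94 higher for Fhod3, 1.12 for Daam1 and 0.86 for Diaph2, and it differed by -2.30 for Inf2, -1.51 for Fhod1 and -1.05 for Fmnl3. The genes that were higher there are long, at 425 kb (Fhod3), 161 kb (Daam1) and 716 kb (Diaph2), and the 3 lower ones named are 26.8 kb, 18.8 kb and 53.3 kb. The other 3 members over 100 kb went the other way, Daam2 (108 kb, -0.66), Fmnl2 (276 kb, -0.78) and Diaph3 (486 kb, -1.58). Over the 10 formins the Spearman correlation of this log2 level with gene length was 0.48 in control 4. In the other libraries, each against the rest of its group, it ran from -0.87 (control 2) to 0.83 (Cre+ 2). For the other controls that rest includes control 4, so their values are not independent of it. Whether length set control 4 apart among the formins was not tested. Over 12133 genes, the log2 level of control 4 against the other controls had a Spearman rank correlation of 0.31 with gene length, a description across genes of 1 library. Genes of at least 100 kb had a median of 0.23 there and genes under 20 kb a median of -0.53. In the other 8 libraries the correlation over all these genes ran from -0.25 to 0.13. The fits of Fhod3 and Daam1 without control 4 are given above.

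Other genes of the actin nucleation pathway showed no call either. Among 4 other formins, 2 were tested in experiment A and 1 in experiment B. Fmn1 had a log2 fold change of -0.42 (edgeR adjusted p 0.708) and Fmnl1, a leukocyte formin, 0.14 (0.832) in experiment A and -0.52 (limma adjusted p 0.358) in experiment B.

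Of 6 formin binding partners, 0 were called in either experiment. Dvl2, a Dishevelled protein bound by DAAM1, was 465 to 666 CPM in WT and 419 to 430 CPM in CAP2 -/- (log2 fold change -0.32, edgeR adjusted p 0.379), and Nckipsd, a Diaphanous partner, 17.5 to 20.1 and 12.6 to 15.1 (-0.36, 0.436). In experiment B the smallest p-values were those of Baiap2 (0.95, limma adjusted p 0.352) and Dvl1 (-0.52, 0.405).

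The Arp2/3 complex, which nucleates branched filaments and is the counterpart of the formins, had 0 of 9 subunits called in each experiment. Its median log2 fold change was 0.09 in experiment A, with 7 of 9 positive, and 0.48 in experiment B, with 8 of 9 positive, beside the medians over all genes of 0.0057 and -0.12. Arpc1b stood at 21.4 to 23.0 CPM in WT and 26.2 to 33.1 CPM in CAP2 -/- (log2 fold change 0.46, edgeR adjusted p 0.166). Arpc3 was 313 to 584 in the controls and 621 to 886 in Cre+ (0.73, limma adjusted p 0.119), and Arpc2 368 to 670 and 549 to 922 (0.57, 0.193). The summed level of the 9 subunits in experiment B was 2746 to 4157 in the controls and 3778 to 5170 in Cre+, and the summed fibroblast markers (6 genes) were 2530 to 9778 and 7417 to 16231. Their part in the Arp2/3 values was not tested. Of 11 other nucleators and nucleation promoting factors, 10 and 9 were tested and 0 called; Jmy (-0.22, edgeR adjusted p 0.600) and Cobl (0.33, 0.659) had the smallest p-values in experiment A, and Cobl (0.69, limma adjusted p 0.220) and Wasl (-0.37, 0.359) in experiment B.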

How the data were processed

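Whole-heart RNA was prepared with the Ion Total RNA-Seq Kit v2 (experiment A) and the Illumina TruSeq stranded mRNA kit (experiment B), per the labels' protocols. The submitters' processing notes name mm10, STAR 2.6.0c and DESeq with no role; not given in the sources used here are the annotation, counter and strand setting. The experiment A table deposited by the authors holds estimated counts per gene and exon, not all whole (26.5% of gene values above 0 are). Their deposited comparison has a mean normalized signal, log2 fold changes and p-values. The experiment B table deposited by the authors holds whole-number normalized read counts, treated as a score because their method is not stated; depth is unknown and no count test was run. Members were matched by Ensembl identifier, and 36308 of 38087 and 54079 of 54232 identifiers were found in GENCODE M21.

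Estimated counts were rounded and tested in edgeR 4.0.16 (R 4.3.3; TMM, filterByExpr, robust quasi-likelihood). For experiment B, genes averaging 10 or more were tested on log2(value + 1) by robust limma-trend (limma 3.58.1) with a sex term. On that scale fold changes of low genes are understated. Both fits covered all genes, with Benjamini-Hochberg adjustment, and called means an adjusted p under 0.05. CPM per library uses the unadjusted total. Levels per kilobase use the union of exons in the experiment A table or in GENCODE M21 for experiment B. Exon rows are described, with no test, where the mean of 1 group is at least 20 reads and the gene has at least 3 rows. Exon sequences come from the GENCODE M21 transcripts. The scripts were tested on simulated data with 200 changed genes. Alternatives were DESeq2 1.42.0, other scalings, filters and pseudocounts, covariates, a replicate block and leaving out each library.

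The 10 members and the other lists were chosen with earlier results of these data known. The results of 1 of these lists are not reported here. All members are named, and of other lists up to 4 called genes or, with none called, the 2 of smallest p; exons are named where shares differ at least 2-fold without overlap, and those of Daam1, exon 16 of Daam1 and Daam2, and those of Fhod3 were chosen after their values were seen. Pairs of replicates in experiment A had a chi-square per gene of 11.5 to 31.7, above sampling noise. Each library has a number of its own in the labels, which do not state that these are separate animals. If they are not, p-values measure only the spread among these libraries, and that spread may be technical.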

Additional observations from a re-analysis of the deposited data

Results flagged for a closer look

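Of 42 groups of 4 or 5 libraries of experiment B examined for a single library far from the rest, 6 held one, where chance gives about 1 in 20. Control 4 accounted for 4 of the 6. It had the highest control value of Fhod3, 2206 normalized counts, the next being 710. It had the lowest of Inf2, 43, the next being 203, and Inf2 made up 1.90% of its summed formin level per kilobase. Its summed level of the 10 formins per kilobase was 464, where the other controls had 286 to 296. Cre+ 1 accounted for the other 2. Fmnl3 was 341 there, the next Cre+ library having 181, and Fhod1 made up 15.8% of its summed level per kilobase, the next having 8.99%. These groups share libraries and are not independent of each other.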

How the results depend on the processing

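The count of formins called in experiment A was 0 and became 1 (Fhod3) with DESeq2 and with no filter on low counts. It was 0 without each replicate in turn. In experiment B it was 0 and became 1 (Daam1) without control 5, a range of 0 to 1, and 1 without control 4 and Cre+ 1 together, an alternative chosen after seeing the data. Over all genes, experiment A gave 220 calls, 402 with DESeq2, 512 with no filter, and 126 to 275 without 1 library (137 without CAP2 -/- 2, 126 without CAP2 -/- 3, 144 without WT 3). Experiment B gave 228 calls, 346 with no filter, 36 with the mitochondrial share and 19 with the atrial markers as a covariate, 39 to 695 without 1 library, and 1439 without control 4 and Cre+ 1 together. The cause of these moves was not tested. Of 108 fold changes of members under the alternatives in experiment A, 10 changed sign and 2 crossed 0.05, as did 18 and 2 of 189 in experiment B. Those that changed sign belonged to results that were not called. Leaving out 1 library at a time in experiment A gave log2 fold changes of -0.23 to 0.13 for Fhod1, -0.046 to 0.063 for Daam2, -0.025 to 0.37 for Diaph2, -0.23 to 0.12 for Inf2, -0.041 to 0.23 for Fmnl2 and -0.14 to 0.0055 for Fmnl3. Daam2 became 0.0021 with upper-quartile scaling. In experiment B the same ranges were -0.30 to 0.34 for Diaph2, -0.46 to 0.12 for Inf2 and -0.25 to 0.078 for Fmnl2. Fhod1 became 0.066 and Diaph2 -0.29 with the atrial markers, and Diaph2 -0.00070 and Inf2 0.0011 with no sex term. Fmnl2 became 0.034 with TMM scaling, 0.056 with quantile normalization and 0.089 with the mitochondrial share. Fmnl3 became 0.18 and Dvl1 0.091 with the mitochondrial share. Deviations of same-numbered libraries from their group means had correlations of -0.17 to -0.02 in experiment A and -0.11 to 0.24 in experiment B. Differently numbered libraries were not compared, so these values do not settle whether the numbers mark pairs. With the replicate block 394 genes were called in experiment B, and 0 formins in either experiment. Under the block Daam2 became 0.0027 in experiment A, and Inf2 0.12 and Fmnl2 0.078 in experiment B. The depth of experiment B is unknown, and Diaph3 was under the minimum of the main test in both experiments.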
